A study of Rattus norvegicus with 3 samples.

Results

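The genes described here are 8 CXC chemokines and receptors, the ligands Cxcl1, Cxcl2, Cxcl10, Cxcl12, Cxcl14 and Cxcl16 and the receptors Cxcr2 and Cxcr4. They were chosen by name, and all 8 were found among the 20896 gene names of the deposited cluster tables. CXC chemokines are small proteins that guide leukocytes along a gradient by binding G protein-coupled receptors on the cell surface. Cxcl1 and Cxcl2 act on Cxcr2, which calls neutrophils out of the marrow and into tissue, while Cxcl12, made by marrow stroma, acts on Cxcr4 and holds neutrophils and blood-forming cells in place. Cxcl10 is induced by interferons and attracts T and NK cells through Cxcr3.

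Single-cell RNA sequencing was done on mandibular condyle cartilage and subchondral bone of wild-type SD rats, all of which had AAV injected into the temporomandibular joint (TMJ). The sham group had Vector AAV and no unilateral anterior crossbite (UAC), an altered bite that loads the TMJ. The UAC group had Vector AAV with UAC, and the third group, written UAC + miR-330, had UAC with an AAV carrying the microRNA miR-330. The sample label of the third group says only that it was the UAC treatment group, and the agent was taken from the description of the series. Rats of the AAV groups were kept for 8 weeks, and their age was not given. Each group was 1 library made from 16 condyles of 8 rats pooled together, so no spread between animals or libraries could be measured, no difference was tested, and none could be checked in a replicate. UAC against sham asks what the crossbite moved, and UAC + miR-330 against UAC asks what miR-330 moved in joints under the crossbite. Both comparisons use the UAC library.

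Each library had been clustered on its own, into 15 clusters in sham, 18 in UAC and 19 in UAC + miR-330, and the tables give a mean count per gene and cluster. Dividing by the smallest positive mean of a cluster gave whole numbers, read as unique molecular identifiers (UMIs, counted RNA molecules). The libraries held 77668015 UMIs in sham, 92629658 in UAC and 97255383 in UAC + miR-330. Levels are given as UMIs per 1000000 UMIs of the library or cluster (counts per 1000000, CPM), with exact Poisson 95% intervals that cover counting error only. As a one-sided limit, a count of 0 allows up to 3 UMIs in a library, or 0.0386 CPM in sham, 0.0324 CPM in UAC and 0.0308 CPM in UAC + miR-330. A gene was called higher or lower when it had at least 10 UMIs in both libraries together, differed at least 2-fold with 0.5 UMI added to each count, and had intervals that did not overlap. Among genes that had 50 or more UMIs, the middle log2 ratio was -0.02 in UAC against sham and 0.13 in UAC + miR-330 against UAC. The ratios below are relative to total UMIs, and relative to that median the ratios of Cxcl1 and Cxcl2 in UAC + miR-330 against UAC were -2.31 and -1.26. In sums over all clusters, fewer cells of a type and less RNA per cell cannot be told apart. The tables hold no cell barcodes, so cells could not be counted and shared barcodes could not be looked for.

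The labels name chondrocytes and osteoclasts, and many clusters carried blood cell markers instead. Col2a1, the main collagen of cartilage, stood at 3210 CPM over all clusters in sham, 1273 CPM in UAC and 1520 CPM in UAC + miR-330, and its level was highest in sham. The cluster with the most chondrocyte markers was cluster 12 in sham, 16 in UAC and 17 in UAC + miR-330, with 15, 15 and 16 of 17 markers enriched. It also carried 8, 9 and 9 of 10 osteogenic markers and 7 of 10 fibroblast markers in each library, so it is called the chondrocyte-marker cluster and not a chondrocyte cluster. No cluster was named osteoclast by its markers, and the markers differed. Ocstamp, needed for osteoclast fusion, had 3 UMIs in sham, 2 in UAC and 1 in UAC + miR-330. Calcr, the calcitonin receptor of osteoclasts, had 4, 1 and 2 UMIs in the same order. Other genes of the list, which further cell types also express, were more abundant. Acp5, an acid phosphatase, stood at 149 CPM in sham, 112 CPM in UAC and 94.5 CPM in UAC + miR-330. Ctsk, a collagen-cleaving protease, had 1857, 1804 and 1126 UMIs, of which 1598, 1556 and 899 lay in the chondrocyte-marker cluster. Atp6v0d2, a proton pump subunit, had 72, 92 and 13 UMIs, with 63 of the 92 in the macrophage-marker cluster of UAC. Of the 9 osteoclast markers, 2, 3 and 2 were enriched in the macrophage-marker cluster and 3 in the mature neutrophil-like cluster of each library.

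A further 3 kinds of cluster hold most of the chemokine UMIs and were matched between libraries by their markers. The macrophage-marker cluster was cluster 15 in sham, 9 in UAC and 10 in UAC + miR-330, with 11 of 12 macrophage markers and 7 of 9 monocyte markers enriched in each library. It was led by Fcnb and Vcan, genes of the monocyte list, and its 10 leading genes held 0, 1 and 1 macrophage markers against 2, 3 and 2 markers of other classes. The name therefore stands for the markers that matched it and not for a cell type. The mature neutrophil-like cluster was cluster 8 in sham, 8 in UAC and 6 in UAC + miR-330, with 11 of 12 mature neutrophil markers enriched in each. The mixed-marker cluster was cluster 14 in sham, 13 in UAC and 5 in UAC + miR-330, and carried markers of plasma cells, erythroid cells, mast cells and macrophages at once. Of the 50 leading genes of each cluster, sham and UAC shared 36 in the macrophage-marker cluster, 33 in the mature neutrophil-like cluster, 43 in the chondrocyte-marker cluster and 30 in the mixed-marker cluster. UAC and UAC + miR-330 shared 45, 43, 42 and 20 in the same order, so the mixed-marker cluster was the least alike between these libraries.

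Over all clusters, 3 of 8 members were higher in UAC than in sham, namely Cxcl1, Cxcl2 and Cxcl10, beside 2.43% of 16687 genes tested. None of the 8 was lower, beside 1.88% of those genes. In UAC + miR-330 against UAC, 2 of 8 were lower, namely Cxcl1 and Cxcl2, beside 0.992% of 16939 genes tested. None was higher, beside 2.35%. The members' shares called higher in the former comparison and lower in the latter were above these, which is a description only, since the genes were picked with earlier results in view. Cxcl10 had risen in UAC and was not lower in UAC + miR-330, so the 3 ligands did not follow the same order across the libraries.

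**Figure D1:**
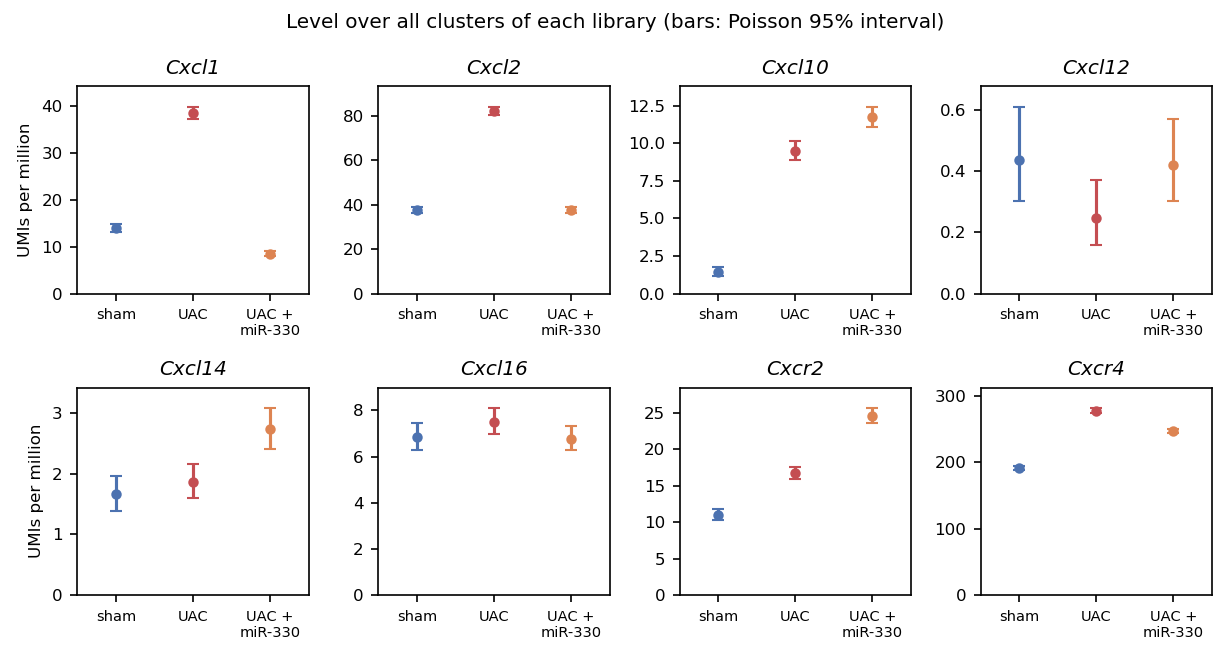
Level of each of the 8 genes over all clusters in sham, UAC and UAC + miR-330, in UMIs per 1000000, with exact Poisson 95% intervals as bars and 1 library per condition. Cxcl1 stood at 13.9, 38.6 and 8.50 CPM, Cxcl2 at 37.8, 82.4 and 37.7 CPM, and Cxcl10 at 1.45, 9.50 and 11.7 CPM, in that order of libraries.

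Cxcl1 (ENSRNOG00000002802) is a neutrophil attractant that binds Cxcr2. It had 1082 UMIs in sham, 3577 in UAC and 827 in UAC + miR-330, or 13.9 CPM (13.1 to 14.8), 38.6 CPM (37.4 to 39.9) and 8.50 CPM (7.93 to 9.10). UAC was the highest of the 3 libraries, UAC + miR-330 was below sham, and no pair of intervals overlapped. The log2 ratio was 1.47 for UAC against sham, a 2.77-fold rise, and -2.18 for UAC + miR-330 against UAC, a ratio of 0.220.

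Most Cxcl1 molecules lay in the macrophage-marker cluster. That cluster held 74.0% of them in sham (exact binomial 95% interval 71.3 to 76.6), 83.3% in UAC (82.1 to 84.5) and 84.9% in UAC + miR-330 (82.3 to 87.3). Its share of all UMIs was 4.36%, 6.33% and 6.16%. Within the cluster, the Cxcl1 level was 237 CPM in sham (221 to 254), 508 CPM in UAC (490 to 526) and 117 CPM in UAC + miR-330 (109 to 126). The order of the libraries was the same as over all clusters, and the intervals lay apart. Cxcl1 was therefore higher per UMI of the cluster in UAC by a log2 ratio of 1.10, and lower in UAC + miR-330 by a log2 ratio of -2.11. With this cluster left out, a choice made after the data were seen, the log2 ratio of UAC against sham over the other clusters was 0.86, short of 2-fold.

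The make-up of the macrophage-marker cluster differed between the libraries as well. All 12 macrophage markers were found there, and their summed level was 3623 CPM in sham, 1896 CPM in UAC and 2174 CPM in UAC + miR-330, with Apoe the most abundant in sham and UAC + miR-330 and Cd68 in UAC. C1qa stood at 655, 170 and 192 CPM and Cd163, a scavenger receptor of resident macrophages, at 108, 14.8 and 30.4 CPM. Macrophage markers were thus highest in sham, where Cxcl1 stood between the other libraries. Summed monocyte markers stood at 24332, 24331 and 26771 CPM, with Lyz2 the most abundant, and Vcan at 641, 953 and 1269 CPM. Summed mature neutrophil markers stood at 7067, 7903 and 4418 CPM, with S100a8 the most abundant, in the same order of libraries as Cxcl1. Summed mast or basophil markers stood at 429, 5.45 and 4.68 CPM. The part of these markers in the Cxcl1 and Cxcl2 results of the cluster was not tested.

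In sham the next clusters for Cxcl1 were the mature neutrophil-like cluster at 55.1 CPM and the chondrocyte-marker cluster at 9.09 CPM (7.23 to 11.3), and the next below them was cluster 11 at 2.11 CPM. In UAC the chondrocyte-marker cluster had 55.5 CPM (49.7 to 61.8) and the mature neutrophil-like cluster 47.9 CPM (39.2 to 57.9), and these neighbours overlapped. In UAC + miR-330 the mature neutrophil-like cluster had 23.8 CPM (18.1 to 30.8) and the chondrocyte-marker cluster 6.63 CPM (4.71 to 9.06). The macrophage-marker, mature neutrophil-like and chondrocyte-marker clusters thus led in all 3 libraries, and the last of them overlapped the neutrophil cluster in UAC alone.

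Within the chondrocyte-marker cluster, Cxcl1 had 82 UMIs in sham, 332 in UAC and 39 in UAC + miR-330. The log2 ratio was 2.60 for UAC against sham, a 6.08-fold rise, and -3.05 for UAC + miR-330 against UAC, a ratio of 0.121. Intervals of the UAC library lay above both others, and those of sham and UAC + miR-330 overlapped. Markers of mature neutrophils moved the same way in this cluster. All 12 were listed and none was enriched, and their summed level was 1075 CPM in sham, 3660 CPM in UAC and 693 CPM in UAC + miR-330, with S100a9 the most abundant in sham and UAC and S100a8 in UAC + miR-330. Hdc was at 0 in sham, and Fpr1 in UAC and in UAC + miR-330. Their part in the Cxcl1 result was not tested. As a share of its level in the mature neutrophil-like cluster, Cxcl1 in the chondrocyte-marker cluster stood at 16.5% in sham, 116% in UAC and 27.8% in UAC + miR-330. The summed neutrophil markers stood at 0.335%, 1.36% and 0.308% by the same measure, and Cxcl2 at 0.622%, 0.221% and 0.146%. Against the macrophage-marker cluster, Cxcl1 in the chondrocyte-marker cluster stood at 3.84%, 10.9% and 5.65%, and the summed macrophage markers at 1.63%, 4.39% and 2.88%, in the same order of libraries. Those markers summed to 59.0, 83.3 and 62.5 CPM in the chondrocyte-marker cluster, where 1 of 12 was enriched. Of them C1qa had 10, 5 and 7 UMIs and Apoe 82, 25 and 21 UMIs, neither highest in UAC, and Cd163 and Vsig4 were at 0 in all 3 libraries.

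Cxcl2 (ENSRNOG00000002792), also a Cxcr2 ligand and a product of activated neutrophils and macrophages, had 2936 UMIs in sham, 7629 in UAC and 3664 in UAC + miR-330. Its level was 37.8 CPM (36.4 to 39.2), 82.4 CPM (80.5 to 84.2) and 37.7 CPM (36.5 to 38.9). UAC was high, and the intervals of sham and UAC + miR-330 overlapped. The log2 ratio was 1.12 for UAC against sham, a 2.18-fold rise, and -1.13 for UAC + miR-330 against UAC, a ratio of 0.457. The latter was -0.89, short of 2-fold, when the deposited mean counts were compared without scaling the libraries to each other. Those means sum to 4541 per cluster in sham, 5200 in UAC and 6123.5 in UAC + miR-330, so leaving them unscaled adds 0.20 to every log2 ratio of UAC against sham and 0.24 to every log2 ratio of UAC + miR-330 against UAC.

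Cxcl2 had its largest share in neutrophils and not in the macrophage-marker cluster. The mature neutrophil-like cluster held 57.4% of its UMIs in sham (55.5 to 59.2), 50.5% in UAC (49.3 to 51.6) and 54.1% in UAC + miR-330 (52.5 to 55.7). In that cluster the level was 552 CPM in sham (526 to 579), 1739 CPM in UAC and 814 CPM in UAC + miR-330 (778 to 850). UAC was highest there, UAC + miR-330 stood between the others, and the log2 ratios were 1.65 and -1.10. These values rest on the matched cluster, since the libraries split their neutrophils differently and cluster 7 of UAC, also scored as mature neutrophil, had 81.9 CPM. The clusters scored as mature or intermediate neutrophil were also summed, after the data were seen, except cluster 5 of sham. That cluster was named B, had 1 of 8 intermediate neutrophil markers enriched, and held 5 Cxcl2 UMIs. In these sums Cxcl2 stood at 218 CPM in sham (207 to 228) and 287 CPM in UAC (279 to 296). In UAC + miR-330 it stood at 204 CPM (195 to 213). UAC was still highest with its interval apart, sham and UAC + miR-330 overlapped, and the log2 ratios of 0.40 and -0.50 were short of 2-fold. Without cluster 18 of UAC, which had few Cxcl2 UMIs, they were 0.77 and -0.86. With the like cluster 18 of UAC + miR-330 added to its neutrophils and that of UAC kept, the latter was -0.91. Cxcl1 in the summed neutrophil clusters stood at 21.7 CPM in sham (18.5 to 25.2), 8.43 CPM in UAC (7.01 to 10.0) and 5.81 CPM in UAC + miR-330 (4.43 to 7.48). Sham was highest there, at a log2 ratio of -1.36 for UAC against sham, unlike over all clusters, and the UAC libraries overlapped.

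In the macrophage-marker cluster Cxcl2 stood at 329 CPM in sham (310 to 349), 523 CPM in UAC (505 to 542) and 228 CPM in UAC + miR-330 (216 to 240). UAC was again highest and UAC + miR-330 lowest, with log2 ratios of 0.67, short of 2-fold, and -1.20. In the chondrocyte-marker cluster Cxcl2 had 31, 23 and 7 UMIs, and no interval of neighbouring libraries in that order lay apart. Relative to the median gene of the cluster, or to totals without haemoglobin, immunoglobulin, mitochondrial and ribosomal protein genes, Cxcl2 was called lower there in UAC + miR-330, at log2 ratios of -1.64 and -1.65.

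The ratio of Cxcl1 to Cxcl2 UMIs, compared between clusters and libraries and not as a level of either gene, differed by cluster. In the mature neutrophil-like cluster it was 0.0998 in sham, 0.0275 in UAC and 0.0292 in UAC + miR-330. In the macrophage-marker cluster it was 0.718 in sham (0.655 to 0.787), 0.970 in UAC (0.922 to 1.02) and 0.515 in UAC + miR-330 (0.470 to 0.565). In the chondrocyte-marker cluster it was 2.65 in sham (1.73 to 4.14), 14.4 in UAC (9.46 to 23.1) and 5.57 in UAC + miR-330 (2.46 to 14.8). Among these clusters the ratio was, within each library, lowest in the neutrophil cluster and highest in the chondrocyte-marker cluster, with the 3 intervals apart.

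Counted within clusters, 1 of 6 members tested in the macrophage-marker cluster was higher in UAC than in sham, Cxcl1, beside 0.712% of 11234 genes tested. In UAC + miR-330 against UAC, 2 of 6 were lower there, Cxcl1 and Cxcl2, beside 1.00% of 11461 genes. In the mature neutrophil-like cluster, 1 of 4 was higher in UAC, Cxcl2, beside 1.90% of 8278 genes, and it was short of 2-fold over the summed neutrophil clusters. In UAC + miR-330, 2 of 5 were lower in that cluster, Cxcl1 and Cxcl2, beside 1.05% of 8004 genes, and neither passed 2-fold with intervals apart over the summed neutrophil clusters as scored. Both did when cluster 18 was counted in UAC + miR-330 and not in UAC, at log2 ratios of -1.26 for Cxcl1 and -1.28 for Cxcl2. The count of those higher was 1 of 5, Cxcl10, beside 2.75%. In the chondrocyte-marker cluster, 2 of 7 were higher in UAC, Cxcl1 and Cxcl14, beside 3.24% of 12606 genes. In UAC + miR-330, 1 of 7 was lower in it, Cxcl1, beside 2.74% of 12398 genes. Cxcl1 was the member lower in UAC + miR-330 in all 3 matched clusters, and in the mature neutrophil-like cluster it passed the threshold narrowly, with a ratio of 0.499. With deposited mean counts, not scaled between libraries, 3 of these calls in UAC + miR-330 ended. Cxcl2 then had a log2 ratio of -0.97 in the macrophage-marker cluster and -0.86 in the mature neutrophil-like cluster, and Cxcl1 had -0.77 in the latter. The Cxcl1 call in the neutrophil cluster also ended with 5 UMIs added, at -0.96, and with 1 UMI added.

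**Figure D2:**
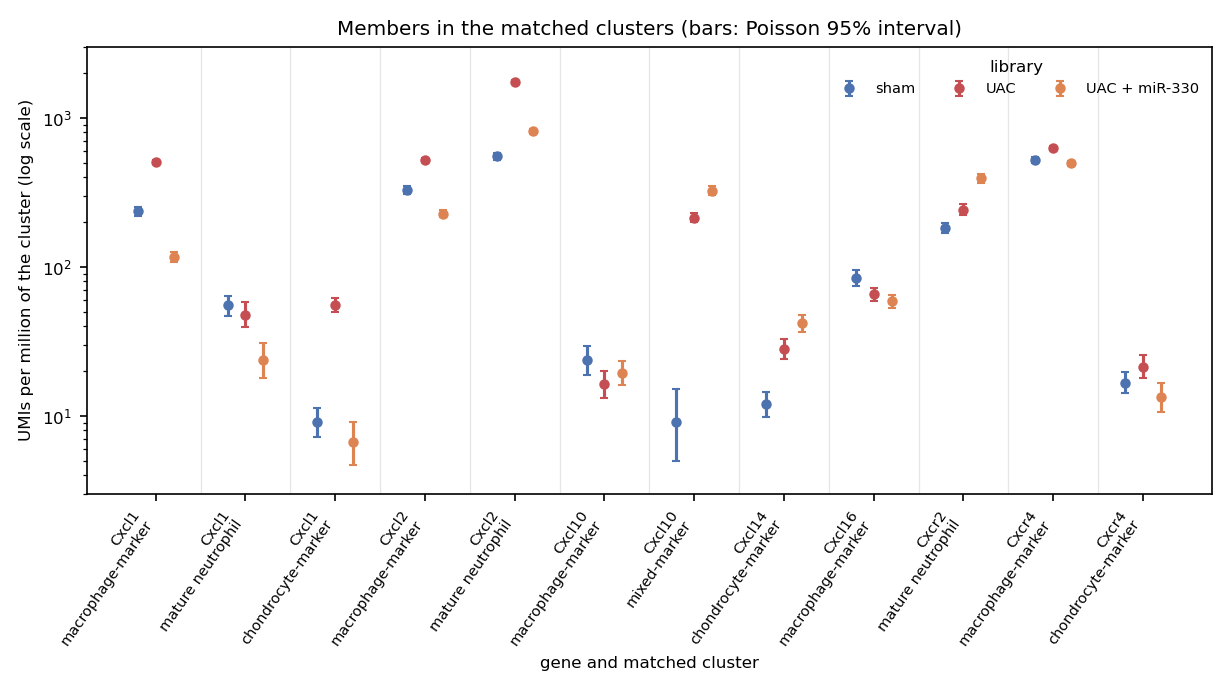
Level of 12 gene and cluster pairs in sham, UAC and UAC + miR-330 on a log axis of UMIs per 1000000 of the cluster, with exact Poisson 95% intervals as bars. Cxcl1 in the macrophage-marker cluster stood at 237, 508 and 117 CPM and Cxcl2 in the mature neutrophil-like cluster at 552, 1739 and 814 CPM.

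Cxcl10 (ENSRNOG00000022256), the interferon-induced ligand of Cxcr3, had 113 UMIs in sham, 880 in UAC and 1142 in UAC + miR-330. Its level was 1.45 CPM (1.20 to 1.75), 9.50 CPM (8.88 to 10.1) and 11.7 CPM (11.1 to 12.4). Sham was low, UAC + miR-330 was highest, and no intervals overlapped. The log2 ratio was 2.70 for UAC against sham, a 6.50-fold rise, and 0.31 for UAC + miR-330 against UAC, short of 2-fold.

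The cluster that carried Cxcl10 was not the same kind in sham as in the other libraries. In sham the macrophage-marker cluster held 70.8% of its UMIs (61.5 to 79.0), whereas the mixed-marker cluster held 83.4% in UAC (80.8 to 85.8) and 80.9% in UAC + miR-330 (78.5 to 83.2). In the mixed-marker cluster Cxcl10 had 14 UMIs in sham, 734 in UAC and 924 in UAC + miR-330, or 9.04 CPM (4.94 to 15.2), 215 CPM (199 to 231) and 326 CPM (305 to 347). Sham was far below both UAC libraries there, and the 3 intervals lay apart. The log2 ratios were 4.52 for UAC against sham, or 22.9-fold, and 0.60 for UAC + miR-330 against UAC, short of 2-fold. Of 5 members tested in this cluster, 1 was higher in UAC than in sham, Cxcl10, beside 2.71% of 9848 genes, and none was lower, beside 5.90%. Of 6 tested in UAC + miR-330 against UAC, 1 was higher, Cxcl14, with 0 UMIs in UAC and 13 in UAC + miR-330, beside 12.2% of 10508 genes, and none was lower, beside 4.57%. The last background is high, so the cluster as a whole differed between these libraries. The mixed-marker cluster held 1.99% of all UMIs in sham, 3.69% in UAC and 2.92% in UAC + miR-330.

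With the mixed-marker cluster left out, a choice made after the data were seen, Cxcl10 had 99 UMIs in sham, 146 in UAC and 218 in UAC + miR-330, or 1.30 CPM (1.06 to 1.58), 1.64 CPM (1.38 to 1.92) and 2.31 CPM (2.01 to 2.64). Sham and UAC overlapped and UAC + miR-330 was above both. The log2 ratios were 0.33 for UAC against sham and 0.49 for UAC + miR-330 against UAC, and Cxcl10 was no longer called. Of the UAC + miR-330 molecules, 35 lay in cluster 19, at 15.1 CPM. In the macrophage-marker cluster it had 80, 96 and 116 UMIs in sham, UAC and UAC + miR-330, or 23.6, 16.4 and 19.4 CPM. The intervals overlapped in each of the comparisons, with log2 ratios of -0.53 and 0.24. In the mature neutrophil-like cluster it had 8, 1 and 21 UMIs, with only 1 UMI behind the UAC value of that call. Over the summed neutrophil clusters as scored it had 15 UMIs in sham, 6 in UAC and 25 in UAC + miR-330, or 1.92 CPM (1.08 to 3.17), 0.408 CPM (0.150 to 0.888) and 2.42 CPM (1.57 to 3.57). UAC was lowest there and its interval lay apart from both others, at log2 ratios of -2.17 and 2.48. Without cluster 18 of UAC, the interval of UAC overlapped that of sham. In UAC + miR-330 against UAC the ratio was between 3.62-fold and 5.59-fold, with intervals apart, in each of 4 ways of counting cluster 18 of these libraries.

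Macrophage markers in the mixed-marker cluster did not rise with Cxcl10 from sham to UAC. Of the 12, 6 were enriched in sham, 6 in UAC and 7 in UAC + miR-330, and their summed level was 950 CPM, 665 CPM and 1171 CPM, with Vsig4 at 0 in sham and UAC + miR-330. C1qa, a complement component made by resident macrophages, stood at 254, 159 and 299 CPM in that order. Hba-a1, an alpha globin of red cells, stood at 50471 CPM in sham, 7040 CPM in UAC and 46032 CPM in UAC + miR-330, and Igh-6, an immunoglobulin heavy chain, at 11413, 39712 and 17591 CPM. Summed mast or basophil markers, led by Mcpt8l2, stood at 2149, 3640 and 328 CPM, with 8, 8 and 4 of 9 enriched, and the mast cell protease Mcpt10 at 5428, 9946 and 536 CPM. By its markers the UAC cluster alone was named mast or basophil. Summed early granulocyte markers stood at 2769, 3133 and 50.8 CPM, with 6, 6 and 0 of 7 enriched. Mast and early granulocyte markers were thus low in UAC + miR-330, where Cxcl10 was highest. Summed chondrocyte markers, led by Col2a1 at 898, 69.0 and 774 CPM, stood at 2538, 243 and 2087 CPM, with none of 17 enriched. Cxcl14 had 5, 0 and 13 UMIs there, in the same order of libraries. The make-up of the cluster thus differed between the libraries, and its part in the Cxcl10 and Cxcl14 results was not tested.

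In the mixed-marker cluster more of the other interferon-induced genes were lower than higher in UAC against sham. Of 16 tested in UAC against sham, 1 was higher and 6 were lower, with a median log2 ratio of -1.14 beside -0.04 over all genes tested there, and beside the backgrounds of 2.71% and 5.90% given above. Rsad2, an antiviral enzyme, had 80 UMIs in sham, 22 in UAC and 143 in UAC + miR-330, and Ifi27 had 96, 65 and 204 UMIs. Both fell per UMI of the cluster in UAC, at log2 ratios of -2.98 and -1.70, where Cxcl10 rose. Gbp5, a guanylate-binding protein, had 14, 77 and 92 UMIs and rose in UAC at a log2 ratio of 1.28. In UAC + miR-330 against UAC, 10 of 19 were higher and none lower, with a median of 1.51 beside 0.25 and the background of 12.2% given above. Cxcl10 was also higher in that comparison, with intervals apart and short of 2-fold.

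Cxcl12 (ENSRNOG00000013589), the marrow stromal ligand of Cxcr4, was sparse. It had 34 UMIs in sham, 23 in UAC and 41 in UAC + miR-330, or 0.438 CPM (0.303 to 0.612), 0.248 CPM (0.157 to 0.373) and 0.422 CPM (0.303 to 0.572). UAC had the lowest value and all 3 intervals overlapped, so no difference was detectable at this depth. Its highest value was in the chondrocyte-marker cluster in sham, at 1.33 CPM (0.687 to 2.32), and in UAC + miR-330, at 2.04 CPM (1.05 to 3.56). Neither lay apart from the next clusters. Among others, cluster 13 overlapped it in sham, at 0.706 CPM (0.305 to 1.39). Cluster 14 overlapped it in UAC + miR-330, at 1.39 CPM (0.450 to 3.24). In UAC the chondrocyte-marker cluster, with 4 UMIs at 0.669 CPM (0.182 to 1.71), overlapped cluster 11, at 0.872 CPM (0.451 to 1.52). Lepr and Adipoq, which mark the reticular stromal cells known to make most marrow Cxcl12, had 56, 34 and 62 UMIs and 32, 28 and 32 UMIs in sham, UAC and UAC + miR-330. Their counts were low in all 3 libraries, and Kitl, another product of these cells, was not listed.

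Cxcl14 (ENSRNOG00000011984), a chemokine of epithelia and connective tissue, had 129 UMIs in sham, 173 in UAC and 266 in UAC + miR-330. Its level was 1.66 CPM (1.39 to 1.97), 1.87 CPM (1.60 to 2.17) and 2.74 CPM (2.42 to 3.08). Sham and UAC overlapped, and UAC + miR-330 was above both. The log2 ratios were 0.17 and 0.55, short of 2-fold.

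The chondrocyte-marker cluster held 83.7% of Cxcl14 UMIs in sham (76.2 to 89.6), 97.1% in UAC (93.4 to 99.1) and 92.5% in UAC + miR-330 (88.6 to 95.4). Within it the level was 12.0 CPM in sham (9.82 to 14.5), 28.1 CPM in UAC (24.0 to 32.7) and 41.8 CPM in UAC + miR-330 (36.7 to 47.4). The libraries stood in the order sham, UAC, UAC + miR-330 with no overlap. The log2 ratio was 1.23 for UAC against sham, a 2.34-fold rise, and 0.57 for UAC + miR-330 against UAC, short of 2-fold. The cluster itself held 11.6% of all UMIs in sham, 6.46% in UAC and 6.05% in UAC + miR-330, so Cxcl14 was higher per UMI of the cluster in UAC while its sum over the library did not differ beyond the intervals. Outside the cluster Cxcl14 was lower in UAC than in sham, with a log2 ratio of -2.30 on few UMIs.

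Cxcl16 (ENSRNOG00000026647) is a membrane-bound chemokine and scavenger receptor that binds Cxcr6 and is shed by Adam10. It had 533 UMIs in sham, 696 in UAC and 659 in UAC + miR-330, or 6.86 CPM (6.29 to 7.47), 7.51 CPM (6.97 to 8.09) and 6.78 CPM (6.27 to 7.31). The 3 intervals overlapped, and the log2 ratios were 0.13 and -0.15. The macrophage-marker cluster held 53.7% of its UMIs in sham, 55.3% in UAC and 53.3% in UAC + miR-330, and no cluster of any library was at 0. Within the macrophage-marker cluster Cxcl16 stood at 84.5 CPM in sham (75.0 to 94.9), 65.6 CPM in UAC (59.2 to 72.5) and 58.6 CPM in UAC + miR-330 (52.7 to 65.1). Sham was above both UAC libraries there, and the UAC libraries overlapped. The next cluster for Cxcl16 stood far lower, at 5.94 CPM in sham, 17.2 CPM in UAC and 12.3 CPM in UAC + miR-330.

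**Figure D3:**
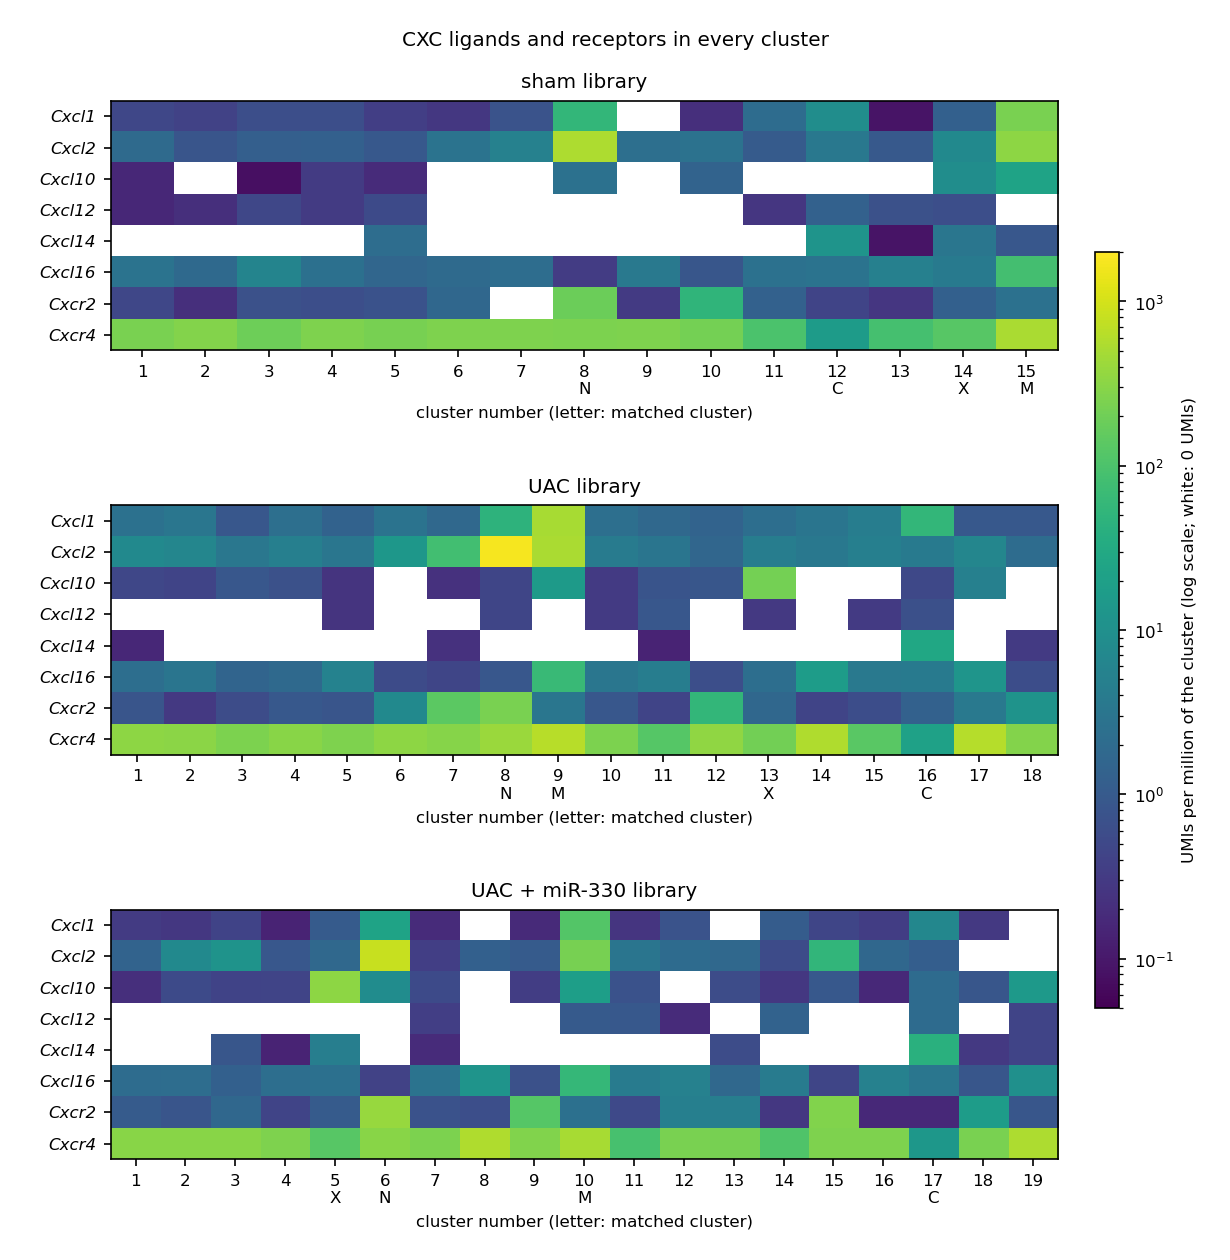
Level of the 8 genes in every cluster of sham, UAC and UAC + miR-330 on a log colour scale of UMIs per 1000000 of the cluster, with white for 0 UMIs and the letters M, N, C and X for the macrophage-marker, mature neutrophil-like, chondrocyte-marker and mixed-marker clusters. Cxcl14 had 0 UMIs in 10, 13 and 11 clusters of the 3 libraries, and Cxcr4 was found in every cluster.

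Cxcr2 (ENSRNOG00000014269), the neutrophil receptor for Cxcl1 and Cxcl2, had 855 UMIs in sham, 1549 in UAC and 2398 in UAC + miR-330. Its level was 11.0 CPM (10.3 to 11.8), 16.7 CPM (15.9 to 17.6) and 24.7 CPM (23.7 to 25.7). The libraries stood in the order sham, UAC, UAC + miR-330 with intervals apart, and neither step reached 2-fold, at log2 ratios of 0.60 and 0.56. With the mature neutrophil-like cluster left out, a choice made after the data were seen, the log2 ratio of UAC against sham was 1.49 and Cxcr2 was called. That cluster held 65.3% of Cxcr2 UMIs in sham and 34.6% in UAC, where cluster 7, also scored as mature neutrophil, held 39.7%. Over the summed neutrophil clusters described below the log2 ratio was -0.06, or 0.27 without cluster 18 of UAC, and neither was called.

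Cxcr2 lay in neutrophil clusters in every library, and the libraries split those cells differently. Its highest levels were 183 CPM in cluster 8 and 52.2 CPM in cluster 10 of sham. In UAC they were 242 CPM in cluster 8, 139 CPM in cluster 7, 56.2 CPM in cluster 12 and 11.5 CPM in cluster 18, and in UAC + miR-330 they were 393 CPM in cluster 6, 264 CPM in cluster 15 and 124 CPM in cluster 9. These clusters lay above every other cluster of their library, though the interval of cluster 18 of UAC overlapped that of cluster 6, a B cell cluster. Within the mature neutrophil-like cluster the log2 ratios were 0.40 for UAC against sham and 0.70 for UAC + miR-330 against UAC, with intervals apart and neither at 2-fold.

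The clusters whose best score was for mature or intermediate neutrophils, chosen after the data were seen, were added together, except cluster 5 of sham. That cluster was named B, had 1 of 8 intermediate neutrophil markers enriched, and held 4 Cxcr2 UMIs at 0.727 CPM. The summed clusters held 10.0% of all UMIs in sham, 15.9% in UAC and 10.6% in UAC + miR-330. They held 94.3%, 94.1% and 93.6% of Cxcr2 UMIs. In them Cxcr2 stood at 103 CPM in sham (96.3 to 111), 99.0 CPM in UAC (94.0 to 104) and 217 CPM in UAC + miR-330 (208 to 226). Sham and UAC overlapped, and UAC + miR-330 was above both. Without cluster 18 of UAC, which carried little Cxcr2, the UAC level was 124 CPM (118 to 131) and lay above sham, so the order of these libraries rests on which clusters are counted. Cluster 18 of UAC + miR-330, scored as early granulocyte, shared the leading genes Defa11, Defa5, RatNP-3b, Np4 and Ms4a3 with cluster 18 of UAC and had 60 Cxcr2 UMIs at 17.2 CPM. With it added, a choice made after the data were seen, the level in UAC + miR-330 was 167 CPM (160 to 174), still above sham and UAC. The ratio to UAC was then 1.68-fold in place of 2.19-fold. Leaving out cluster 18 of UAC gave 1.75-fold, or 1.34-fold with cluster 18 of UAC + miR-330 added. Intervals lay apart each time, and of these ratios the 2.19-fold alone was called. Outside the neutrophil clusters Cxcr2 stood at 0.701 CPM in sham, 1.18 CPM in UAC and 1.77 CPM in UAC + miR-330. The last was 1.13 CPM (0.910 to 1.38) with cluster 18 counted among the neutrophils, and it then overlapped UAC.

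Cxcr4 (ENSRNOG00000003866), the Cxcl12 receptor that retains leukocytes in marrow, was found in every cluster. It had 14819 UMIs in sham, 25734 in UAC and 24048 in UAC + miR-330, or 191 CPM (188 to 194), 278 CPM (274 to 281) and 247 CPM (244 to 250). UAC was highest and sham lowest, the intervals lay apart, and the log2 ratios of 0.54 and -0.17 were short of 2-fold. The median cluster stood at 236 CPM in sham, 298 CPM in UAC and 257 CPM in UAC + miR-330.

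No cluster held more than 17.0% of Cxcr4 UMIs in any library. The highest level in sham was in the macrophage-marker cluster, at 523 CPM (499 to 548), followed by cluster 2 at 280 CPM. In UAC the macrophage-marker cluster at 633 CPM (612 to 653) and cluster 17, which carried T and NK cell markers, at 603 CPM (571 to 637) overlapped at the top. In UAC + miR-330 cluster 8 at 565 CPM (539 to 592) and cluster 19 at 550 CPM (520 to 581) overlapped at the top, and the macrophage-marker cluster followed at 495 CPM (478 to 514). The lowest level in each library was in the chondrocyte-marker cluster, at 16.7 CPM in sham, 21.4 CPM in UAC and 13.4 CPM in UAC + miR-330. The next lowest stood at 88.3, 125 and 93.4 CPM, in clusters with erythroid markers.

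Cxcr4 differed between libraries within the matched clusters by less than 2-fold. In the mature neutrophil-like cluster it stood at 248 CPM in sham, 411 CPM in UAC and 300 CPM in UAC + miR-330, with log2 ratios of 0.73 and -0.45 and intervals apart. In the macrophage-marker cluster the log2 ratios were 0.27 and -0.35, also with intervals apart. In both clusters UAC was the highest of the 3 libraries. In the summed neutrophil clusters Cxcr4 stood at 233, 325 and 276 CPM, in the same order.

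Of the other CXC ligands, 6 were tested in UAC against sham, and 2 were higher and 1 lower, beside 2.43% and 1.88% of all genes tested, with a median log2 ratio of -0.16 beside -0.02. Cxcl3, a further Cxcr2 ligand, had 93 UMIs in sham, 246 in UAC and 121 in UAC + miR-330, with log2 ratios of 1.14 and -1.09, both called. The latter was -0.86, short of 2-fold, with deposited mean counts. Ppbp, a platelet ligand of Cxcr2, had 1, 37 and 4 UMIs and was also called higher in UAC and lower in UAC + miR-330, on few counts. Cxcl13, which attracts B cells, had 35 UMIs in sham and 20 in UAC + miR-330 and was not listed in UAC, where it was taken as 0. In UAC + miR-330 against UAC, 8 ligands were tested, 2 were higher and 2 lower, beside 2.35% and 0.992% of all genes, and the median was 0.39 beside 0.13. Cxcl11, another Cxcr3 ligand, had 1, 8 and 37 UMIs and was called higher in UAC + miR-330. Pf4, a platelet chemokine, stood at 15.0, 15.4 and 9.69 CPM and was not called.

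Of the other receptors and scavengers, 4 were tested and 3 were higher in UAC than in sham, beside 2.43% of all genes, with a median log2 ratio of 1.57 beside -0.02. Cxcr5, the Cxcl13 receptor, had 57 UMIs in sham, 581 in UAC and 1015 in UAC + miR-330, with log2 ratios of 3.08, called, and 0.73, not called. Cluster 14 of UAC held 404 of them and cluster 8 of UAC + miR-330 held 846. Cxcr3, the receptor for Cxcl10, had 42, 114 and 105 UMIs, with log2 ratios of 1.18, called, and -0.19, and 89 of the UAC molecules lay in cluster 17. Cxcr6, the receptor for Cxcl16, had 8, 39 and 36 UMIs and was called higher in UAC at a log2 ratio of 1.96. Ackr3, a scavenger of Cxcl12, had 897, 880 and 701 UMIs and was not called, and 866, 634 and 451 of them lay in the chondrocyte-marker cluster. None of the 4 was called in UAC + miR-330 against UAC, with a median of -0.19 beside 0.13.

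Of 18 genes of receptor signalling tested, 1 was higher in UAC and none lower, with a median of 0.21 beside -0.02. It was Pik3r5, a regulator of the PI3-kinase activated by G proteins, at 24.5 CPM in sham, 49.7 CPM in UAC and 55.9 CPM in UAC + miR-330. Gnai2, the G protein subunit that couples to these receptors, stood at 582, 583 and 528 CPM. None was called in UAC + miR-330 against UAC, with a median of 0.34 beside 0.13. These counts were near the shares over all genes, 2.43% and 1.88% in UAC against sham and 2.35% and 0.992% in UAC + miR-330 against UAC. With deposited mean counts, 4 were higher in UAC and 2 in UAC + miR-330, Grk3, Rgs1 and Rgs2 joining Pik3r5 in the former and Plcb2 and Rgs18 making up the latter.

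Of 8 proteases that trim or shed chemokines, 2 were higher in UAC and 1 lower, beside 2.43% and 1.88% of all genes, with a median of 0.05 beside -0.02. Ctsg stood at 15.0 CPM in sham, 32.1 CPM in UAC and 53.6 CPM in UAC + miR-330, and Elane at 21.4, 44.6 and 66.8 CPM. Both are granule proteases of neutrophil precursors. Mmp2, a stromal protease that cleaves Cxcl12, fell from 61.7 CPM to 28.7 CPM in UAC and stood at 21.9 CPM in UAC + miR-330. Its log2 ratio in UAC was -1.10, or -0.91 and short of 2-fold with deposited mean counts. In sham 96.3% of Mmp2 UMIs lay in the chondrocyte-marker cluster, which held 11.6% of all UMIs in sham and 6.46% in UAC. Within that cluster none of 8 proteases tested was called in UAC against sham. Among all genes tested there, 3.24% were higher and 0.603% lower. Over all clusters, none of the 8 was called in UAC + miR-330 against UAC, with a median of 0.45 beside 0.13.

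Of 13 factors of the Cxcl12 niche, 1 was higher in UAC and 2 lower, beside 2.43% and 1.88% of all genes, with a median of -0.12 beside -0.02. Vcam1, an adhesion molecule of stroma and macrophages, stood at 8.15 CPM in sham, 1.38 CPM in UAC and 3.55 CPM in UAC + miR-330. It was low in UAC, called lower against sham and higher in UAC + miR-330, at log2 ratios of -2.56 and 1.36. Foxc1, a transcription factor of reticular stroma, stood at 7.29, 3.51 and 3.80 CPM and fell in UAC, at a log2 ratio of -1.05 that was -0.86 and short of 2-fold with deposited mean counts. In sham 96.1% of Foxc1 UMIs lay in the chondrocyte-marker cluster, which held 11.6% of all UMIs in sham and 6.46% in UAC. Within that cluster none of 12 niche factors tested was called in UAC against sham. Among all genes tested there, 3.24% were higher and 0.603% lower. Angpt1, a ligand of the Tie2 receptor, stood at 10.6, 22.2 and 32.6 CPM and rose in UAC. Over all clusters, Vcam1 was the member of the list called in UAC + miR-330 against UAC, beside 2.35% of all genes higher. The median was 0.27 beside 0.13, and Lepr joined Vcam1 with deposited mean counts.

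None of 19 interferon-induced genes tested was called in either comparison, with medians of -0.03 beside -0.02 and 0.17 beside 0.13. With shares over all genes of 2.43% or less in either direction, a count of 0 in a list of this size says little. With deposited mean counts, Ifit2 was called higher in UAC + miR-330. Irf1, an interferon-induced transcription factor, stood at 62.4, 63.2 and 64.5 CPM, Ifit3 at 38.3, 48.7 and 44.0 CPM, and Ifi27 at 59.1, 64.5 and 82.8 CPM. For the 8 members themselves the median log2 ratio was 0.57 in UAC against sham and 0.08 in UAC + miR-330 against UAC.

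The genes whose level over the 52 clusters was most like that of each member were ranked by Pearson correlation among 11409 genes with at least 500 UMIs. The clusters of a library share its depth and its animals, so the values are a description. Cxcl1 was most like Cd302 at 0.857, S100a6 at 0.836 and Ctsb at 0.834, and Cxcl2 was most like Lilrb4 at 0.946 and Ccl6 at 0.935. Cxcl10 was most like Cd163 at 0.805, C1qb at 0.797 and Apoe at 0.785, all known from macrophages. Cxcl14 was most like the collagen gene Col5a1 at 0.955 and the collagen receptor Ddr2 at 0.952, and Cxcl16 was most like Trex1 at 0.887. Cxcr2 was most like Clec5a at 0.966 among genes with a symbol, and Cxcr4 was most like Ptprc, the pan-leukocyte marker, at 0.902. Cxcl12 was left out because it had fewer than 100 UMIs.

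All 8 members had a promoter in the RefSeq table of build GRCr8, 250 bases before the gene start and 50 after it. The letters GGGA and TTTCC with any 1 base between them, a form of the site bound by NF-kappaB, were searched on both strands and occurred in 121 of 33469 promoters (0.362%), and in 1 of the 8, Cxcl1. The letters GAAA and GAAA with any 2 bases between them, a core of the interferon-stimulated response element, occurred in 1312 promoters (3.92%), and in 1 of the 8, Cxcl10. The upstream 250 bases are printed for Cxcl1, Cxcl2 and Cxcl10, the members called in UAC against sham, with the matches in capitals. They lie at chr14:17479322-17479571 on the minus strand for Cxcl1, at chr14:17467256-17467505 on the minus strand for Cxcl2, and at chr14:15988816-15989065 on the plus strand for Cxcl10. A match is a description of letters. Cxcl2 had neither set of letters in this window, and Cxcl10 had no match to the former, which says nothing of other forms of these sites.
Cxcl1: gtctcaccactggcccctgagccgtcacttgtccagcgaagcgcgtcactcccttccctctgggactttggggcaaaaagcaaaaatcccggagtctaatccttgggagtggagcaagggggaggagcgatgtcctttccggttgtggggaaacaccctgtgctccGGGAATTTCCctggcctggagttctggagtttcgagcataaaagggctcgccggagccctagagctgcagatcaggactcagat
Cxcl2: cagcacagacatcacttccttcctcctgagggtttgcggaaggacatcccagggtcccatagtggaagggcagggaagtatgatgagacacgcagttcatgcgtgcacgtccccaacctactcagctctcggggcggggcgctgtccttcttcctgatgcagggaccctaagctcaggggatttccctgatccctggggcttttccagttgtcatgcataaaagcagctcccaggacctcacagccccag
Cxcl10: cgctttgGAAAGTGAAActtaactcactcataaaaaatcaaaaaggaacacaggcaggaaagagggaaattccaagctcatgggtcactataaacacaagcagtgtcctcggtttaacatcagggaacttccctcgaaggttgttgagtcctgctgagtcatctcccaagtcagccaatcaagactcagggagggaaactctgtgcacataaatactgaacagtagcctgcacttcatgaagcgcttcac

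The miR-330 of the third group has a pair of mature arms in the RefSeq table, and the labels do not say which was carried. Both are printed with the seed, bases 2 to 8, in capitals, since this RNA is the difference in treatment between the UAC libraries. They lie at chr1:87961227-87961248 and chr1:87961266-87961288 on the plus strand of GRCr8, and no target search was made.
rno-miR-330-5p: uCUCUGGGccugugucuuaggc
rno-miR-330-3p: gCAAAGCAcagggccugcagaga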

How the data were processed

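Cluster tables of 3 single-cell libraries, 1 per condition, were read. The deposited values are a signal, the mean count of a gene in a graph-based cluster that the authors obtained with the tools named in the submitters' processing notes, Cell Ranger 7.0, STAR and Seurat 4.0.1. The notes name GRCh38 and mm10, while the gene IDs are rat Ensembl IDs, so the build behind the counts was not known. The log2 fold change and adjusted p columns of the authors compare each cluster with the rest of its library and were not used. Means were divided by the smallest positive mean of their column, and 100% of the values were whole within 1e-06. Levels are UMIs per 1000000 UMIs, a gene not listed in a library was taken as 0, and ratios had 0.5 UMI added to each count. Intervals are exact (Poisson for levels, Clopper-Pearson for shares, at 95%). No model of counts was fitted, as there was 1 library per condition, and no test was run. Calling was checked on simulated Poisson counts around the sham totals with known fold changes, which hold no spread between animals or libraries. Doublets and free RNA were not treated.

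Clusters were scored with 202 markers of 21 cell classes, a marker counting as enriched at a log2 ratio of at least 1 against the other clusters with at least 10 UMIs, and the matched cluster was that with the most enriched markers of the class. The mixed-marker cluster was that with the most plasma cell markers. The scoring rule was chosen with the tables in view. The members, gene lists and markers were chosen with earlier results of these data known. All members were named, and of each list up to 4 genes, those past 2-fold with the most UMIs first and then those with the most UMIs; other genes were named after their values were seen. Alternatives were other added counts, count minimums, thresholds, totals and centring, deposited mean counts, and leaving out clusters. Python 3.11.15, numpy 2.4.6, pandas 2.3.3, SciPy 1.17.1 and matplotlib 3.10.9 were used.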

Additional observations from a re-analysis of the deposited data

How the results depend on the processing

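The numbers of members past 2-fold over all clusters, 3 higher in UAC and 2 lower in UAC + miR-330, kept within 1.5 times their value under every alternative run except deposited mean counts without rescaling, where 1 member, Cxcl1, was lower in UAC + miR-330 against UAC in place of 2. Cxcl2 then had a log2 ratio of -0.89, since that setting adds 0.24 to every log2 ratio of this comparison. A 1.5-fold threshold added Cxcr2 to those higher in UAC. In alternatives chosen after the data were seen, leaving out the macrophage-marker cluster left 2 higher in UAC, with Cxcl1 at a log2 ratio of 0.86, and leaving out the mixed-marker cluster left 2, with Cxcl10 at 0.33. The counts over all genes moved more. With deposited mean counts they were 679 higher and 153 lower in UAC, against 405 and 313, and 871 higher and 95 lower in UAC + miR-330, against 398 and 168. Centred on the median gene, the latter were 266 and 259. The sign of some ratios that were not called turned: Cxcl14 in UAC without its leading cluster (-2.30), by the same added 0.24 Cxcl16 over all clusters (0.09) and in the macrophage-marker cluster (0.07) and Cxcr4 (0.07), and Cxcr2 in the macrophage-marker cluster with 5 UMIs added (-0.02). Within the matched clusters, mean counts ended 3 calls in UAC + miR-330, Cxcl2 in the macrophage-marker (-0.97) and mature neutrophil-like (-0.86) clusters and Cxcl1 in the latter (-0.77). Depth limits Cxcl12.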
